A study of Mus musculus with 4 samples.

Results

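Axon guidance ligands and receptors were followed in 4 organ primordia of ICR mouse embryos at embryonic day E11.5. The organs were lung, esophagus, stomach and intestine, each measured on 1 array. The genes were those whose symbols belong to the semaphorin, plexin, neuropilin, Slit, Robo, netrin, Unc5, Dcc, Eph receptor and ephrin families and whose array probe carried an accession matched to that symbol. They numbered 63 of 16995 named genes and were read by 88 of 41105 probes; 40 genes had 1 probe and 23 had more. The gene table held 69 such symbols, and the other 6 (Sema3g, Sema4c, Plxnb2, Plxnd1, Robo3 and Efna3) had no matched probe and were not analysed here. ICR is an outbred laboratory strain, and the labels give no allele, transgene or agent for any of the 4 organs and no number of embryos per sample.

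These families were named for steering growing axons, and they act as well on blood vessels, neural crest cells and epithelia. Class 3 semaphorins are secreted and act through neuropilins paired with plexins, while semaphorins of the other vertebrate classes are held in the membrane and bind plexins directly. Slits repel cells through Robo receptors, netrins attract through Dcc and repel through Unc5 receptors, and ephrins and Eph receptors signal in both directions where cells touch. In the embryonic gut such cues are known to guide enteric neural crest cells and vagal axons.

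The value used throughout is the level: log2 of the processed spot signal minus the 75th percentile of that array, taken over non-control probes. A gene was read by its brightest probe. Where a probe was not well above background, its array entered at a lower limit and the fold is given as "at least". A gene was left out of a pair where neither array was well above background, or where the limit lay above the detected level. The lung array was dim: its 75th percentile was 32.0 signal units, against 379 in the esophagus, 320.2 in the stomach and 991 in the intestine. Of the 63 genes, 39 were well above background in lung (61.9%, against 56.0% of all named genes there), 56 in the esophagus, 56 in the stomach and 60 in the intestine. The lowest level that counted as well above background was −2.39 in the lung, −5.75 in the esophagus, −5.78 in the stomach and −6.92 in the intestine. With 1 array per organ no difference between organs could be tested, and the number of arrays limits the precision. The only error within an array was the spread over 10 copies of a probe, with a median SD of 0.10 (log2) in the lung and 0.07 to 0.08 on the other arrays, which leaves out dissection, RNA and labelling. Markers of 3 organs were highest on the array with their label: Nkx2-1 stood at 2.47 in the lung, Barx1 at 4.49 in the stomach and Cdx2 at 1.90 in the intestine, and no other array exceeded −1.10, 0.92 and −4.31 for these genes. Sox2, which marks the anterior foregut, stood at 1.09 in the esophagus and 0.63 in the stomach, so none of these organ markers set the esophagus array clearly apart. In whole primordia, fewer cells of a type and less RNA per cell cannot be told apart.

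Among the secreted class 3 semaphorins, Sema3d, Sema3a, Sema3e and Sema3c lie in this order along chromosome 5. The 250 bases before their start sites are shown because the 4 genes shared a direction between esophagus and intestine, together with those of the receptor gene Plxna2, which ran the other way. The sequences are from RefSeq, build GRCm38.p6, written 5′ to 3′ on the strand of the gene. Positions are chr5:12382916-12383165 for Sema3d, chr5:13396534-13396783 for Sema3a, chr5:14025026-14025275 for Sema3e, chr5:17574566-17574815 for Sema3c and chr1:194619579-194619828 for Plxna2, all on the plus strand. Capitals mark matches on either strand to any of 4 motifs that were searched separately. They were the TATA box TATAAA, the GC box with the letters GGGCGG, the homeodomain core written TAATTA and the T-box core, whose letters are GGTGTG.
Sema3d: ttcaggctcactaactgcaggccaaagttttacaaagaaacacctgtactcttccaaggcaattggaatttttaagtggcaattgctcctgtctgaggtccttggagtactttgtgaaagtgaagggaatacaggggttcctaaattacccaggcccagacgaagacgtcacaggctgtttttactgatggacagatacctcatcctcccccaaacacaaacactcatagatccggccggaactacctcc
Sema3a: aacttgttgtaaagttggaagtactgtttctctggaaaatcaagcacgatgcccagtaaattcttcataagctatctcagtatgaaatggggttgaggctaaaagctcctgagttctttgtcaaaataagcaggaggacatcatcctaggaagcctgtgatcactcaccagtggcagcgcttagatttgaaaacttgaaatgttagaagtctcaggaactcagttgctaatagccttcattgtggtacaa
Sema3e: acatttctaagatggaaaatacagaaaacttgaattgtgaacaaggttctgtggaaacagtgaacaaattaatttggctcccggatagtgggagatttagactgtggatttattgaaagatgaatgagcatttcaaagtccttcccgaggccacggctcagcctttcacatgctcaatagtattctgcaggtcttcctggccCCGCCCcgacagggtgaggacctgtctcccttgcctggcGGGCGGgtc
Sema3c: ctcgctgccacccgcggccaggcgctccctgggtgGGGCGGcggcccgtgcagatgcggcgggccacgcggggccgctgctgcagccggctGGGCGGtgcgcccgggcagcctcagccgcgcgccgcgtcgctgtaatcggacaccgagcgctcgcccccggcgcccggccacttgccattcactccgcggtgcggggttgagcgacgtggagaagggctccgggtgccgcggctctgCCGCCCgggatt
Plxna2: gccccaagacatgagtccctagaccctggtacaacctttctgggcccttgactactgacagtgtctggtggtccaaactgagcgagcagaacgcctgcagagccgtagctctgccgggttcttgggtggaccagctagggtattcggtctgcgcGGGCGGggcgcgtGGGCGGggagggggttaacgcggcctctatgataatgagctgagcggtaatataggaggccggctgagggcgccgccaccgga
Only the GC box was found in these windows, with 2 matches for Sema3e, 3 for Sema3c and 2 for Plxna2, and none for Sema3d or Sema3a. The GC content was 46.8% for Sema3d, 40.8% for Sema3a, 48.0% for Sema3e, 78.4% for Sema3c and 62.8% for Plxna2. Among 32851 windows of the same length, the GC box was found in 32.7% on either strand, the T-box core in 16.3%, the TATA box in 12.4% and the homeodomain core in 4.8%. The 4 semaphorin windows thus had no motif in common among those searched.

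The first question was how the family as a whole differed along the gut, from esophagus over stomach to intestine. Between esophagus and intestine, 17 of 58 comparable genes were at least 2-fold apart (29.3%, against 20.6% of all genes). Of these, 15 were higher in esophagus, where 11.9% of all genes were called, and 2 were higher in intestine (8.71% of all genes). The median difference, esophagus minus intestine, was 0.34 for the family and −0.13 for all genes. Median centring turned the split of 15 to 2 into 11 to 12, and quantile normalization into 10 to 3. The all-gene median was shifted by the scaling as well, to −0.62 under median centring and −0.20 under quantile normalization, and the family median stood above it under each, at −0.17 and 0.27. Between esophagus and stomach, 14 of 58 genes were 2-fold apart (9.90% of all genes), 11 higher in esophagus (5.63% of all genes) and 3 higher in stomach (4.27%). That split was 7 to 5 under median centring and 2 to 0 under normexp background correction. Between stomach and intestine, 9 of 57 were 2-fold apart (12.4% of all genes), 5 higher in stomach (7.52%) and 4 higher in intestine (4.87%).

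Ordered along the tube, 19 of 54 genes that were well above background in the esophagus, stomach and intestine were lower at each step (35.2%, against 19.9% of all genes). A further 6 were higher at each step (11.1%, against 29.8% of all genes). These shares moved with the scaling: under median centring 20.4% of the family ran downward, against 9.53% of all genes, and 25.9% upward, against 56.1%. Under all 5 scalings run, the downward share was larger in the family than over all genes, and the upward share was smaller. Of the 39 genes well above background everywhere, the highest organ was lung for 11, esophagus for 10, stomach for 9 and intestine for 9, where all genes had shares of 48.9%, 13.2%, 18.3% and 19.6%. The lowest organ was lung for 11, esophagus for 7, stomach for 5 and intestine for 16, where all genes had shares of 20.2%, 42.8%, 14.3% and 22.8%. The 16 lowest in intestine were 8 under median centring. Over all pairs, 40 of 59 genes were at least 2-fold apart in 1 or more (43.2% of all genes). At 4-fold, 10 of 59 genes differed between at least 1 pair of organs, which is 16.9% against 10.4% of all genes.

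In the lung pairs the directions depended on how arrays were scaled and on how undetected genes were handled. Between lung and esophagus, 16 of 50 comparable genes were at least 2-fold apart (25.6% of all genes), 4 higher in lung (16.2%) and 12 higher in esophagus (9.42%). Median centring turned the split of 4 to 12 into 12 to 1, quantile normalization into 5 to 6 and normexp into 4 to 6. Between lung and stomach, 21 of 50 were 2-fold apart (23.9% of all genes), 8 higher in lung (14.0%) and 13 higher in stomach (9.87%), and 10 to 5 under median centring. Between lung and intestine, 15 of 47 were 2-fold apart (20.6% of all genes), 10 higher in lung (12.2%) and 5 higher in intestine (8.39%). That split was 9 to 10 with a percentile restricted to probes detected on every array, and 7 to 7 under normexp. A filter to genes well above background on all 4 arrays changed the directions too. The splits of lung against esophagus, stomach and intestine were then 4 to 8, 8 to 6 and 10 to 2. Shares of all genes under this filter are not given here. The median of lung minus esophagus was −0.23 for the family and 0.28 for all genes. A gene detected in esophagus but not in lung could enter only as lower in lung. Such bounds weigh more in the family. Of its 50 genes compared, 39 were well above background on all 4 arrays, against 9497 of 10513 over all genes. The part of these bounds in the gap was not tested. Under median centring these medians were 0.36 and 0.91, and under normexp −0.20 and −0.21. The plot of organ pairs shows both distributions.

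**Figure D1:**
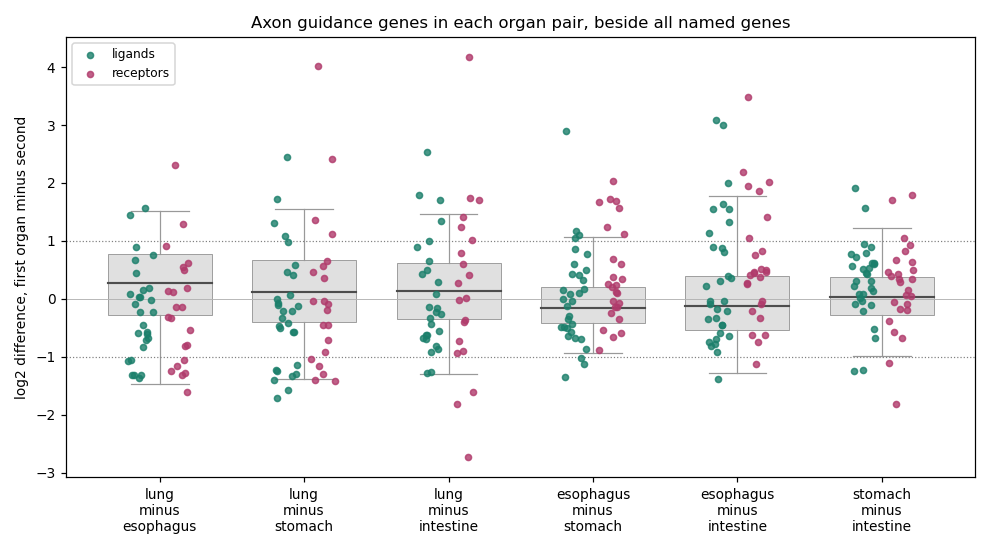
Log2 difference of each axon guidance gene (points, bounds included; ligands green, receptors magenta) in the 6 organ pairs, first organ minus second, on the vertical axis. Grey boxes span the middle of all named genes (quartiles and median) and the whiskers their 5th to 95th percentile; dotted lines mark 2-fold. Between esophagus and intestine 15 points lie above the upper dotted line and 2 below the lower one.

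Few genes stood apart in 1 organ. In lung, 3 genes stood at least 2-fold above every other organ (Epha3, Sema4f and Epha7), which is 7.69% of the 39 well above background, against 6.77% of all genes. In esophagus there were 3 as well (Sema3d, Ntn1 and Sema3a; 5.36% of 56, against 1.23% of all genes), in intestine 1 (Plxna2; 1.67% of 60, against 1.13%) and in stomach 0 of 56 (0.404% of all genes). At least 2-fold below every other organ were Sema5b and Nrp1 in the lung (2 of 54, against 2.52% of all genes) and Sema3d in intestine (1 of 39, against 1.61%). No gene of the family was 2-fold lowest in esophagus (0.305% of all genes) or stomach (0.505%). The counts rest on the arrays that take part: without the lung array 10 genes stood 2-fold above the others in the esophagus, and without the esophagus array 6 did in lung. They rest on the scaling too: under median centring 6 genes stood 2-fold above every other organ in lung and 0 in esophagus. Under normexp 0 did in esophagus. Shares of all genes under these settings are not given here, so a change in the family cannot be told from one over all genes. The all-gene median of lung minus esophagus itself moved, from 0.28 to 0.91 under median centring and to −0.21 under normexp.

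**Figure D2:**
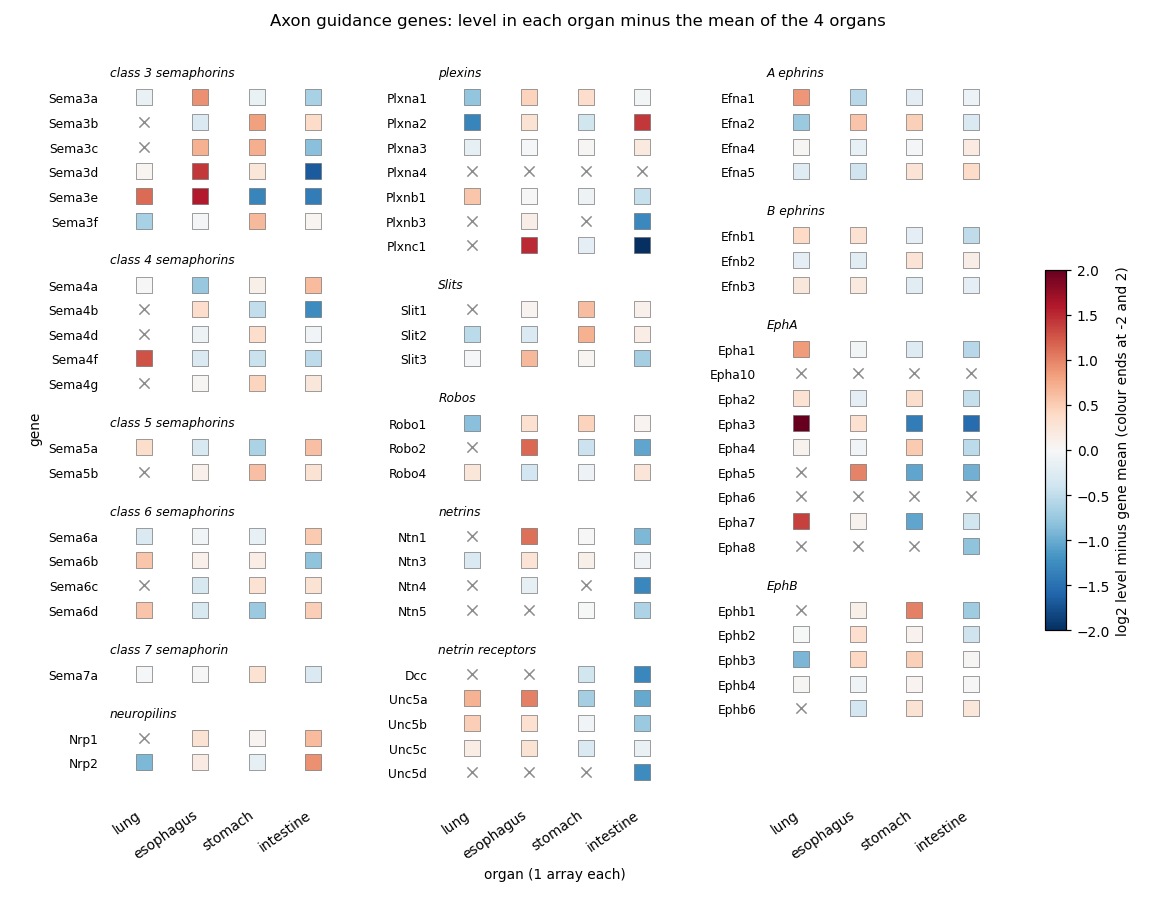
Level of each of the 63 genes in each organ (columns, 1 array each) minus the mean of the gene over the 4 organs, in log2 units, as colour that ends at −2 and 2. Grey crosses mark arrays on which the gene was not well above background; these entered the mean at the lower limit of the array. Sema3d, Sema3e and Plxnc1 are darkest red in esophagus and blue in the intestine, and crosses are most frequent in lung (24 of 63).

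Class 3 semaphorins are secreted ligands, and all 6 measured were at least 2-fold apart between some pair of organs. Sema3d, known for patterning of veins and the outflow region of the heart, stood at −1.16 in the lung, 0.22 in the esophagus, −0.95 in the stomach and −2.87 in the intestine. It was 8.50-fold higher in esophagus than in the intestine, 2.25-fold above stomach, the next organ, and 3.28-fold lower in intestine than in the lung. Its margin in esophagus was under 2-fold with median centring (0.79 on the log2 scale) and normexp (0.48), while the intestine stayed at least 1.51 below the other organs under each scaling.

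Sema3e, which acts on vessels through Plxnd1 without a neuropilin, stood at −0.71 in the lung, −0.25 in the esophagus, −3.15 in the stomach and −3.24 in the intestine. Lung and esophagus were high and stomach and intestine low, with esophagus 7.50-fold above stomach and 7.98-fold above intestine. A second probe gave −0.70, −0.07, −2.72 and −4.34 in the same organ order, and another gave −1.51 in the esophagus and −4.94 in the stomach and was not well above background in lung or intestine. All 3 probes placed esophagus above stomach and intestine.

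Sema3a, the classical repellent of sensory and sympathetic axons, stood at −1.41 in the lung, −0.36 in the esophagus, −1.40 in the stomach and −1.91 in the intestine, 2.07-fold higher in esophagus than in the stomach and 2.94-fold higher than in the intestine. Its second probe gave −0.86 in the lung, −1.61 in the esophagus, −2.56 in the stomach and −2.37 in the intestine. Both probes placed esophagus above intestine, but they differ in sign for esophagus against lung. The margin of esophagus over the next organ was 1.05 (log2) and was under 2-fold with median centring (0.47), quantile normalization (0.82) and normexp (0.17).

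Sema3c, needed in the outflow tract of the heart and by neural crest cells, was not well above background in lung and stood at −1.07 in the esophagus, −1.06 in the stomach and −2.62 in the intestine. Esophagus was 2.94-fold and stomach 2.96-fold above intestine. The 4 chromosome 5 genes were all higher in esophagus than in the intestine, by a median of 2.28 (log2), with 1.77 to 2.37 over the 4 other scalings and 4 of 4 higher under each. Against stomach, 3 of the 4 were higher in esophagus, Sema3c being level at −0.01. Of all genes, 5750 of 13895 were higher in esophagus than in intestine, with a median of −0.13. The 4 genes were set together with their shared direction already seen, so their agreement is no separate evidence.

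The remaining measured genes of the class, Sema3b and Sema3f, lie on chromosome 9 and differed in pattern. Sema3b was not well above background in lung and stood at −1.81 in the esophagus, −0.68 in the stomach and −1.12 in the intestine. Sema3f, a ligand of Nrp2, stood at −1.43 in the lung, −0.83 in the esophagus, −0.13 in the stomach and −0.74 in the intestine. Both were highest in the stomach, Sema3b 2.19-fold and Sema3f 1.62-fold above esophagus. The second probe of Sema3f also placed stomach highest (−0.87, against −1.39 in the esophagus and −1.46 in the intestine).

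Muscle markers were also high on the esophagus array. Of 6 heart muscle markers, 6 were there at least 2-fold above their level in any other organ, and their summed signal, in units of the 75th percentile, was 118 in the esophagus, against 9.15 in the lung, 2.60 in the stomach and 3.86 in the intestine. The 4 skeletal muscle markers summed to 19.9 in the esophagus, 1.08 in the lung, 0.955 in the stomach and 3.05 in the intestine, but Actc1, which is also on the heart list, made up most of this. Of the other 3, Myog was at least 2-fold above every other organ in esophagus, at 0.29, and Myf5 was not well above background on any array. The 4 smooth muscle markers summed to 117 in the esophagus, 32.7 in the lung, 65.2 in the stomach and 55.5 in the intestine, 2 of them 2-fold highest in the esophagus. The 7 mesenchyme markers summed to 271 in the esophagus, 131 in the lung, 156 in the stomach and 89.1 in the intestine, a sum carried by Col1a2 and Col1a1. Twist1 and Prrx1 were 2-fold highest in esophagus, but Foxf1 and Pdgfra were highest in stomach and Tcf21 in intestine. Sema3d, Sema3a, Sema3e, Robo2, Unc5a and Plxnc1 were higher in esophagus than in stomach and intestine, and Ntn1 was so by its brightest probe only. The part of muscle and mesenchyme in these levels was not tested.

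Membrane semaphorins had 1 gene that stood apart in lung. Among 5 class 4 genes, Sema4f stood at −0.38 in the lung, −1.94 in the esophagus, −2.10 in the stomach and −2.17 in the intestine, 2.97-fold higher in lung than in the esophagus, with the other organs close together. It had 1 probe, and its lung margin was 1.26 to 1.88 (log2) over the 4 other scalings. Sema4a, a ligand also known from immune cells, was 2.62-fold higher in intestine than in the esophagus, and Sema4b was 3.10-fold higher in esophagus than in the intestine. Sema4d, a ligand of Plxnb1, and Sema4g were not well above background in lung and stayed within 1.39-fold between the gut segments.

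Of the class 5 genes, Sema5b was not well above background in lung and stood at −1.31 in the esophagus, −0.82 in the stomach and −1.13 in the intestine. Lung was at least 2.11-fold lower than esophagus, a bound of 1.08 (log2) that was 0.49 under median centring and 0.66 under quantile normalization, and under normexp lung could not be placed below esophagus. Its second probe, at −2.73, −2.64 and −1.85 in the esophagus, stomach and intestine, lay too low to compare with lung except in the intestine. Sema5a was 2.37-fold lower in stomach than in intestine by its brightest probe (−0.52 in the stomach and 0.72 in the intestine), but its second probe had the other sign (−3.33 in the stomach and −3.45 in the intestine). The class 6 gene Sema6d was 2.34-fold lower in stomach than in intestine (−0.39 in the stomach and 0.84 in the intestine), and the lung level of Sema6b was 2.55-fold that of intestine. The class 7 gene Sema7a stayed within 1.53-fold over all organs.

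Among the semaphorin receptors, Plxnc1, which binds Sema7a, was not well above background in lung and stood at −1.60 in the esophagus, −3.29 in the stomach and −5.08 in the intestine. It was lower at each step along the gut and was 11.2-fold higher in esophagus than in the intestine. Its ligand Sema7a differed by 1.24-fold over the same pair. With every array raised to the lower limit of the lung array, the difference for Plxnc1 could be bounded only at 0.79 (log2).

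Plxna2, a receptor for class 6 and, with neuropilins, class 3 semaphorins, stood at 0.02 in the lung, 1.62 in the esophagus, 0.94 in the stomach and 2.75 in the intestine. Intestine was 2.19-fold above esophagus, 3.50-fold above stomach and 6.66-fold above lung. A second probe gave −0.33, 0.87, 0.25 and 1.38, and another gave 0.48, 0.00 and 1.73 in the esophagus, stomach and intestine and was not well above background in the lung. All 3 probes placed intestine highest and esophagus above stomach. By the brightest probe the margin of intestine over the next organ held at 1.03 to 1.63 (log2) over the 4 other scalings. By the further probes intestine was 1.42-fold and 2.39-fold above esophagus. With the mean of all probes 0 genes of the family, and so not Plxna2, were 2-fold highest in intestine.

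Of the other plexins, Plxna1 was 2.38-fold higher in esophagus than in lung, a direction that normexp reversed, and Plxna3 stayed within 1.29-fold over the organs. Plxnb1 was 2.02-fold higher in lung than in intestine by its brightest probe, whereas its second probe had the other sign, with −0.21 in the lung and −0.05 in the intestine. Plxnb3 was well above background in esophagus and intestine only and was 2.66-fold higher in esophagus. Plxna4, a receptor for Sema3a, was not well above background on any array.

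The neuropilins, co-receptors of class 3 semaphorins and of vascular endothelial growth factors, were both highest in intestine and lowest in the lung. Nrp1 was not well above background in lung and stood at −1.09 in the esophagus, −1.33 in the stomach and −0.76 in the intestine, so that lung was at least 2.06-fold lower than stomach. Its second probe gave −1.54, −2.37 and −1.98 in the 3 gut segments and was again not well above background in the lung, but it placed esophagus and not intestine highest. Nrp2 stood at 3.95 in the lung, 5.02 in the esophagus, 4.67 in the stomach and 5.77 in the intestine, 3.52-fold higher in intestine than in the lung and 2.15-fold higher than in the stomach. The direction of Nrp2 between lung and each other organ held under the 4 other scalings. Nrp1 in lung could not be compared under normexp, and its margin there was 0.66 to 1.25 (log2) below the next organ over the other 3. Of 10 endothelial markers, 3 were 2-fold highest and 1, Pecam1, 2-fold lowest in the lung. At any margin, Cdh5, Emcn, Esam, Cldn5, Lyve1 and Prox1 were highest in lung, Prox1 without being well above background there. Pecam1, Kdr, Tek and Tie1 were highest in intestine. Their summed signal was 24.1 in the lung, 14.7 in the esophagus, 11.6 in the stomach and 17.6 in the intestine, with Cldn5 (3.39 in the lung) a large part of the lung sum. The part of vessels in the neuropilin levels was not tested.

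**Figure D3:**
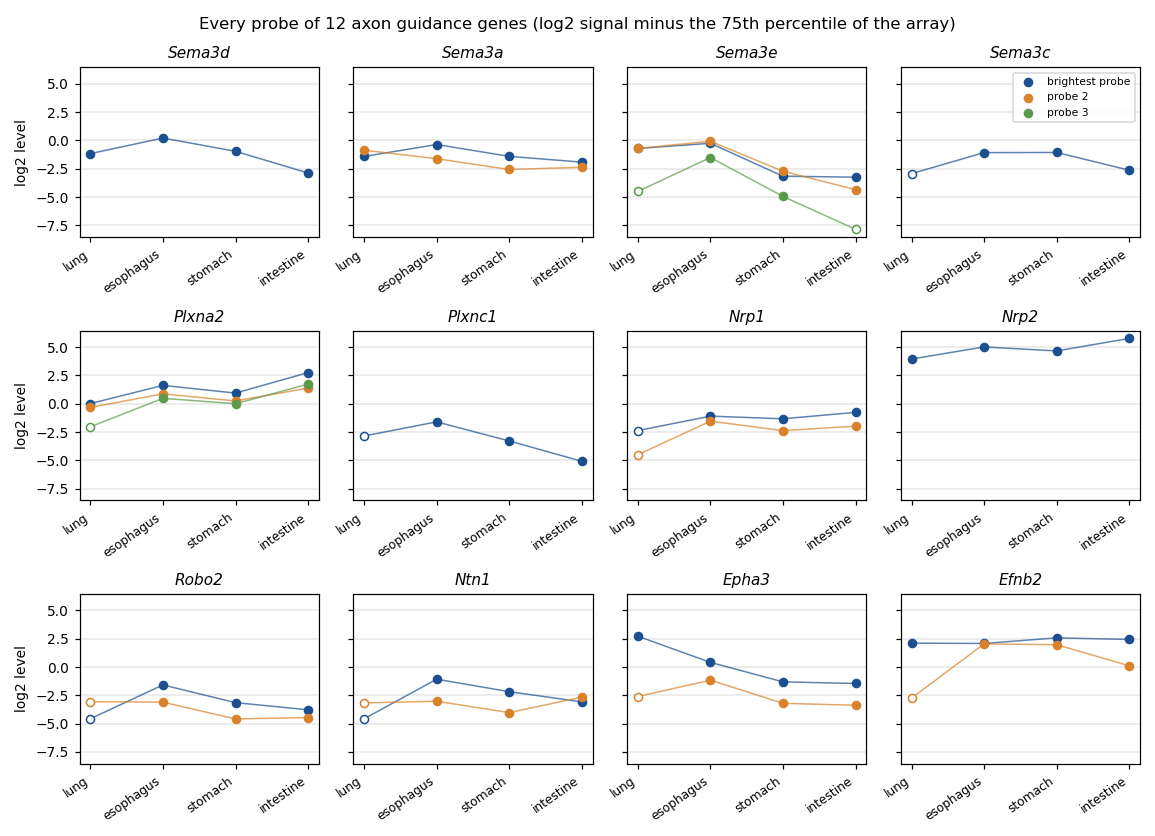
Level of every probe (log2 signal minus the 75th percentile of the array, vertical axis) of 12 genes in the 4 organs (horizontal axis, 1 array each). Blue is the brightest probe, orange and green are further probes, and open circles were not well above background. The 3 probes of Plxna2 run in parallel over the gut segments, while for Epha3 and Efnb2 the lung values differ between probes.

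Slits and Robos form a ligand and receptor pair of families. Slit2 stood at 0.52 in the lung, 0.75 in the esophagus, 1.77 in the stomach and 1.20 in the intestine, 2.03-fold higher in stomach than in the esophagus, and its second probe also placed stomach highest (0.17, against −0.33 in the esophagus and −0.63 in the intestine). Slit3 ran the other way along the gut, with 0.46 in the lung, 1.13 in the esophagus, 0.52 in the stomach and −0.19 in the intestine, and was 2.50-fold higher in esophagus than in the intestine. Slit1 was not well above background in lung and stood at −1.56, −0.99 and −1.52 in the gut segments. All 3 Slits were higher in stomach than in intestine under each of the 5 scalings, by 1.44- to 1.64-fold as reported.

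Robo2, a Slit receptor of neurons, was not well above background in lung and stood at −1.58 in the esophagus, −3.15 in the stomach and −3.78 in the intestine, 4.58-fold higher in esophagus than in the intestine. Its second probe gave −3.10, −4.59 and −4.47 in the same segments, so both probes placed esophagus highest of the gut segments. The difference of 2.19 (log2) between esophagus and intestine was 0.71 under quantile normalization, where the second probe was the brighter, and at the lower limit of the lung array it could be bounded only at 0.81. Robo1 was 2.47-fold higher in stomach than in lung and within 1.32-fold between the gut segments. Robo4, the endothelial member, stood at 2.66 in the lung, 2.05 in the esophagus, 2.30 in the stomach and 2.68 in the intestine and stayed within 1.55-fold. Lung and intestine were its high organs, except that under normexp lung was the lowest. The summed endothelial markers were also highest in lung and intestine, although Cldn5 was a large part of the lung sum. The part of vessels in the Robo4 levels was not tested.

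Among the netrins, Ntn1, the laminin-related attractant of commissural axons, was not well above background in lung and stood at −1.08 in the esophagus, −2.18 in the stomach and −3.08 in the intestine. By this probe it was 2.15-fold higher in esophagus than in the stomach and 4.0-fold higher than in the intestine. The second probe of Ntn1 placed intestine highest, with −3.03 in the esophagus, −4.03 in the stomach and −2.66 in the intestine, so the probes differ in sign for esophagus over intestine. The log2 margin of esophagus over the next organ was 0.73 under median centring and −0.07 under normexp. Under quantile normalization the second probe was the brighter, and the margin was −1.20. Ntn3 stayed within 1.49-fold. Ntn4, a netrin of basement membranes, and Ntn5 were near the lower limit, Ntn4 being 2.19-fold higher in esophagus than in intestine and Ntn5 at least 2.56-fold higher in stomach than in the esophagus.

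Of the netrin receptors, Unc5a stood at −1.32 in the lung, −1.01 in the esophagus, −2.68 in the stomach and −3.03 in the intestine. Lung and esophagus were high and stomach and intestine low, with esophagus 4.05-fold above intestine and 3.19-fold above stomach. Unc5b, a receptor also of vessels, stood at 2.31, 2.13, 1.75 and 1.07 in the lung, esophagus, stomach and intestine, 2.36-fold higher in lung than in the intestine. Unc5c stayed within 1.52-fold. Dcc, the attractive receptor, was well above background in stomach (−5.19) and intestine (−6.11) only, and Unc5d in intestine (−6.32) only. The 3 receptors measured in both organs, Unc5a, Unc5b and Unc5c, were all higher in esophagus than in the intestine, except that Unc5c was lower under median centring.

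Among EphA receptors, Epha3, a receptor of Efna5, stood at 2.72 in the lung, 0.41 in the esophagus, −1.31 in the stomach and −1.45 in the intestine, 4.95-fold higher in lung than in the esophagus and 18-fold higher than in the intestine. Its second probe was not well above background in lung and stood at −1.16 in the esophagus, −3.21 in the stomach and −3.38 in the intestine. The probes share the order of the gut segments, esophagus above stomach and intestine by 1.72 and 1.87 (log2) on the brightest, but they differ in sign for lung. By the second probe lung was at least 2.35-fold lower than esophagus. The log2 difference of lung minus intestine, 4.17 as reported, was 2.82 under normexp and 2.58 with the mean of all probes.

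Epha7 stood at 1.78 in the lung, 0.49 in the esophagus, −0.63 in the stomach and 0.04 in the intestine, 2.44-fold higher in lung than in the esophagus and 5.32-fold higher than in the stomach. Its lung margin was 1.29 (log2), with 0.49 to 1.82 over the 4 other scalings. Epha5 was not well above background in lung and stood at −2.42 in the esophagus, −4.46 in the stomach and −4.37 in the intestine, 4.11-fold higher in esophagus than in the stomach, and its second probe was not well above background on any array. That difference of 2.04 (log2) was 0.61 under normexp, less than 2-fold, and 1.06 with the mean of all probes. Epha1 stood at 0.81, −0.09, −0.31 and −0.59 in the same order of organs as above, highest in lung, and under median centring its intestine level was above those of esophagus and stomach. Epha4, which binds ephrins of both classes, was 2.08-fold higher in stomach than in the intestine, and Epha2 stayed within 1.77-fold. Epha6 and Epha10 were not well above background on any array and Epha8 only in the intestine, at −5.72.

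Of their ligands, Efna1, known from vessels and epithelia, stood at 0.05 in the lung, −1.39 in the esophagus, −1.04 in the stomach and −0.95 in the intestine, 2.71-fold higher in lung than in the esophagus. Efna2 was 2.49-fold higher in esophagus than in the lung, a direction that was reversed under normexp. Efna4 stayed within 1.26-fold, and Efna5, at 2.09, 1.93, 2.60 and 2.71 in the lung, esophagus, stomach and intestine, within 1.72-fold by its brightest probe.

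Among EphB receptors, Ephb1 was not well above background in lung and stood at −1.85 in the esophagus, −0.96 in the stomach and −2.67 in the intestine, 3.27-fold higher in stomach than in the intestine. Ephb3, which acts with Ephb2 in the sorting of intestinal epithelium, stood at 0.95 in the lung, 2.27 in the esophagus, 2.35 in the stomach and 1.89 in the intestine, 2.63-fold higher in stomach than in the lung. Ephb2 stayed within 1.68-fold by its brightest probe. By its second probe esophagus was 3.34-fold and stomach 2.44-fold above intestine. That probe was not well above background in lung, which was at least 3.26-fold lower than esophagus. Ephb6 was not well above background in the lung. Ephb4, the venous receptor of Efnb2, stood at 0.33, 0.22, 0.37 and 0.31 in the lung, esophagus, stomach and intestine and stayed within 1.11-fold, although median centring moved lung minus esophagus to 0.69 (log2). No B ephrin was 2-fold apart between organs by its brightest probe, with Efnb1 within 1.87-fold, Efnb3 within 1.38-fold and Efnb2 within 1.41-fold.

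Of 15 measured markers of enteric neural crest and neurons, 6 were well above background in the lung and 15 on each other array, and 3 were at least 2-fold below every other organ in the lung. Their summed signal was 7.26 in the lung, 19.0 in the esophagus, 27.5 in the stomach and 19.5 in the intestine. Ret, Elavl3 and Stmn2 were among those not well above background in the lung. The part of neuronal cells, and of the dim lung array, in the lung levels of the family was not tested.

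A second probe gave a check of direction within a gene. Between esophagus and stomach the next probe had the sign of the brightest in 16 of 20 genes of the family (80.0%, against 64.5% of all genes), and in 6 of the 6 that were 2-fold apart. Between esophagus and intestine it did so in 11 of 21 (52.4%, against 61.5%), and in 5 of 6 that were 2-fold apart, Ntn1 being the exception. Between stomach and intestine it did so in 11 of 20 (55.0%, against 61.6%), and in 2 of 3 that were 2-fold apart. Between lung and esophagus it did so in 8 of 14 (57.1%, against 53.4%), and in only 2 of 4 that were 2-fold apart, Sema3a and Epha3 being the exceptions. The counts were 10 of 12 between lung and stomach and 8 of 10 between lung and intestine, with 4 of 4 and 4 of 5 of the 2-fold genes. On the lung array, 6 of the 15 genes whose brightest probe was well above background had a next probe well above it too (40.0%, against 60.0% of all genes), while on the other arrays the share was 90.9% in the esophagus, 86.4% in the stomach and 91.3% in the intestine. The brightest probe of Efnb2 stood at 2.11 in the lung and 2.08 in the esophagus, whereas its next probe was not well above background in lung and stood at 2.04 in the esophagus. The probe check thus covers fewer genes in lung than in the gut segments.

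**Figure D4:**
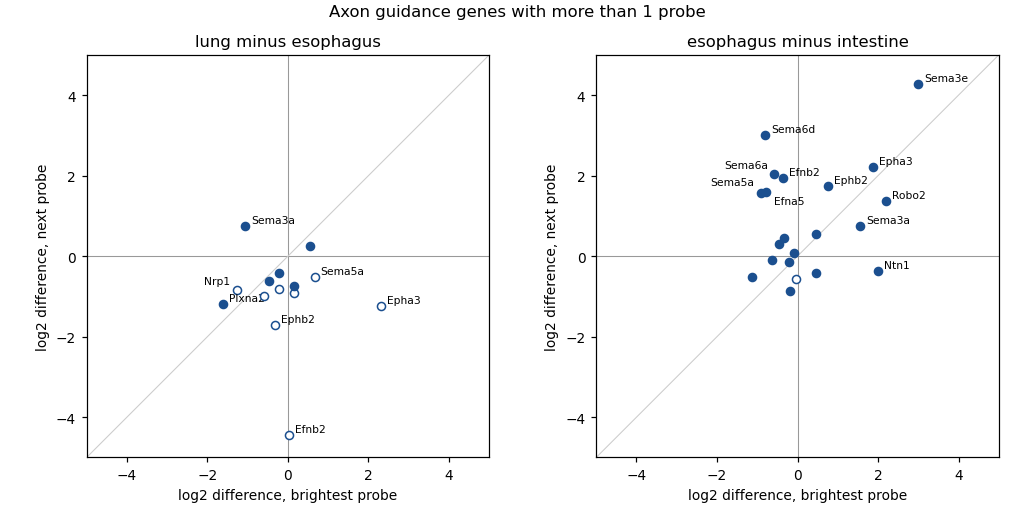
Log2 difference by the brightest probe (horizontal axis) and by the next probe of the same gene (vertical axis), lung minus esophagus on the left and esophagus minus intestine on the right. Open circles have a bound in place of a value on at least 1 array, and the diagonal marks equality. On the right, Sema3e, Epha3 and Robo2 lie in the upper right part, while Sema6d lies above 0 by the next probe and below 0 by the brightest.

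Other genes of the pathway, namely co-receptors, adhesion molecules and cytoplasmic partners on a list of 64 symbols, were measured for 61. In lung, 2 of 39 well above background were at least 2-fold above the other organs (5.13%, against 6.77% of all genes), in esophagus 3 of 59 (5.08%, against 1.23%), in stomach 1 of 59 (1.69%, against 0.404%) and in intestine 0 of 59 (1.13% of all genes). Between esophagus and intestine, 7 of 59 were at least 2-fold higher in esophagus (11.9%, equal to the 11.9% of all genes) and 3 in intestine (5.08%, against 8.71%), with a median of 0.14, against −0.13 for all genes. Ablim3, an actin-binding LIM protein, stood at −1.80 in the lung, −0.86 in the esophagus, −2.59 in the stomach and −5.93 in the intestine, 10.2-fold lower in intestine than in the stomach. Crmp1, which mediates semaphorin signals in neurons, stood at −0.39 in the lung, 3.98 in the esophagus, 3.56 in the stomach and 2.16 in the intestine, 5.86-fold lower in lung than in the intestine. Both were low in 1 organ against the other 3. Mical2, an oxidase of actin, was not well above background in lung and stood at −0.15, −2.48 and −3.33 in the gut segments, at least 4.72-fold higher in esophagus than in the lung. The adhesion molecule Chl1 was not well above background in lung and stood at 0.36, 0.50 and −0.60 in the gut segments, so that lung was at least 3.46-fold lower than intestine.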

How the data were processed

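RNA of lung, esophagus, stomach and intestine primordia was measured on 1 single-colour Agilent array each. The spot intensities were extracted by the authors with Feature Extraction 10.5.1.1 under protocol GE1_105_Dec08, per the file headers, which include background subtraction in the processed signal. The deposited series table holds log2 values per probe, and setting it against the scanner files showed the authors' scaling to the 75th percentile of each array; it changed no count when used instead. The labels' extraction text speaks of stomach for all 4 samples, so organs were taken from the tissue labels, where "gustric" was read as stomach.

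The processed signal of each of 41174 probes was averaged over unflagged spots, after which 69 probes were dropped. Log2 of this mean was then taken, and log2 of the 75th percentile was subtracted. Probe accessions were named through RefSeq (GRCm38.p6), and a gene took its brightest probe by mean over the arrays. A value not well above background was raised to the higher of its own and the lowest well-above level of its array. Pairs with neither array well above background, or with a raised value above the detected one, were left out for that gene. Alternatives for scaling were the 75th percentile over probes well above background on every array, median centring, quantile normalization and normexp (offset 50). Further alternatives were the mean of probes, other filters, and leaving out an array. Normexp was planned on mean spot signals and run on the median spot signal and median background, the columns in hand. No test was possible with 1 array per organ; a call is a difference of at least 2-fold. The step that makes calls was checked on simulated data. Values in every organ are given for 14 genes by rule (at least 2-fold above or below every other organ, or at least 4-fold apart between any 2 organs) and, outside the family, for up to 4 of widest range; others given in full were chosen after their values were seen. The members and lists were chosen with earlier results of these data known. Software was Python 3.11.15, numpy 2.4.6, pandas 2.3.3, R 4.3.3 and limma 3.58.1.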

Additional observations from a re-analysis of the deposited data

How the results depend on the processing

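Of 150 counts of axon guidance genes recomputed under alternatives, 107 stayed within 1.5 times and 43 moved further. The counts below are of the family alone, without the share of all genes under each alternative. With the 75th percentile over probes well above background everywhere, 7 genes were 2-fold lowest in lung and 5 highest in esophagus. Median centring gave 6 highest and 0 lowest in lung, 0 highest and 1 lowest in esophagus, 1 highest in stomach and 2 in intestine. Quantile normalization gave 1 lowest in lung, 1 highest and 1 lowest in esophagus and 1 highest in stomach. Normexp left 10 genes 2-fold apart for lung against esophagus, 13 for lung against stomach, 2 for esophagus against stomach, and 0 highest in esophagus. The mean of all probes gave 1 highest in esophagus, and 0 highest and 2 lowest in intestine. Genes well above background on all 4 arrays alone gave 7 apart between esophagus and stomach, 9 between esophagus and intestine and 0 lowest in lung. Without a filter on dim probes, 28, 34 and 31 genes were apart between lung and the esophagus, stomach and intestine in turn, with 8 highest and 6 lowest in lung, 5 highest and 1 lowest in esophagus and 4 lowest in intestine. The lung array's lower limit on every array gave 9 apart between esophagus and stomach and 11 between esophagus and intestine. Without the lung array 10 were highest in esophagus and 3 lowest in intestine. Without the esophagus array 6 were highest in lung, 2 highest and 1 lowest in stomach and 2 highest in intestine. Without the stomach array 4 were lowest in lung and 5 in intestine. Without the intestine array 7 were lowest in lung, 2 highest in stomach and 4 lowest there. Use of the deposited series table moved none of these counts. Of 118 values of single genes, 12 moved by more than the SD of the difference between probes and 1 was reversed: Ntn1, esophagus minus intestine, was −0.80 under quantile normalization, where its other probe was the brighter. The causes of the other changes were not tested. No paired analysis was possible because each organ has 1 array. The low signal over background of the lung array limits every lung comparison, and no replicate of any organ was used here.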

Other observations

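The promoters of the family were rich in G and C. Of the 63 genes, 53 had entries in the RefSeq promoter table (GRCm38.p6), with 66 windows of 250 bases. Their median GC content was 64.4%, against 52.4% over 32851 windows. The GC box was found in 44 of the 66 (66.7%, against 32.7% of all windows), the T-box core in 13 (19.7%, against 16.3%), and the TATA box and the homeodomain core in 2 each (3%, against 12.4% and 4.8%). A match describes letters and not a site in use.

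Several genes with a small difference by the brightest probe had a larger one by the next. For esophagus minus intestine, Sema6d, Sema6a, Efnb2, Efna5 and Sema5a were below 0 by the brightest probe and above 0 by the next. The next probe of Sema6d stood at −3.40 in the esophagus and −6.42 in the intestine, while its brightest stood at 0.03 and 0.84 there. For Efna5 and Sema6d the 2 probes carry different accessions of the gene. Which probe reads the transcript of these organs better was not tested.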
